A study of Mus musculus with 4 samples.

Results

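The genes described here are the nuclear-encoded genes of the respiratory chain and ATP synthase, measured in embryoid bodies that were differentiated with all-trans retinoic acid (ATRA). They were chosen by symbol, with earlier results of these data known. The rule takes names that start with Nduf, Sdh, Uqcr, Atp5 or Cox4 to Cox8, leaving out the Ndufaf assembly factors and Ndufa4l2. This gave 38 of the 9997 symbols in the table, with 16 in complex I, 3 in complex II, 5 in complex III, 5 in complex IV and 9 in complex V. GENCODE M21 lists 88 protein-coding symbols under the same rule. Of these, 40 lie on chromosomes 1 and 10 to 18, where all 38 genes lie, and the others were not analysed here. By name the set also holds Sdhaf4, an assembly factor of complex II, and Cox7a2l, a factor of supercomplex assembly.

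Embryoid bodies are balls of embryonic stem cells grown in suspension, here from the unmodified mouse line ES-E14TG2a. RNA was sequenced in 4 libraries, 1 for each group: control embryoid bodies, and embryoid bodies with ATRA labelled 0, 6 and 10 days. The protocol, which is the same for all 4 libraries, added 5 µM ATRA on culture days 4 and 6 and moved the aggregates to dishes coated with poly-ornithine and laminin after 8 days. The labels say neither how long the control was cultured nor whether it received ATRA, and the days in the other labels are not tied to the days of the protocol. The days below are therefore label days and no measured exposure, and treatment and culture age cannot be told apart in any comparison with it. With 1 library per group no difference below has a replicate check, and every value describes these libraries.

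Oxidative phosphorylation moves electrons from NADH and succinate through complexes I and II, coenzyme Q, complex III and cytochrome c to oxygen at complex IV. Complexes I, III and IV pump protons across the inner mitochondrial membrane, and the ATP synthase, complex V, lets them back to make ATP. Pluripotent mouse cells are known for strong glycolysis beside active respiration, and differentiation towards neurons or muscle is known for a growing use of oxidative phosphorylation. Most subunits are encoded in the nucleus, while a few of the largest membrane subunits are encoded in mitochondrial DNA, and those were not analysed here.

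Levels are in FPKM, which counts fragments per kilobase of a gene's transcript, scaled by the mapped fragments of its library. Differences are on the log2(FPKM + 1) scale, and a change of at least 2-fold on that scale is called higher or lower. Where 4 levels are given for a gene, they stand in the order control and ATRA libraries labelled 0, 6 and 10 days. The depth was estimated from the FPKM worth of 1 fragment as 24600000 fragments in the control and 26200000, 25600000 and 27500000 at 0, 6 and 10 days. At this depth the counting error of a member in its lowest library ran from 0.544% for Atp5b to 7.28% for Atp5s, Cox8c aside. All 38 genes reached 1 FPKM in at least 1 library. Cox8c, the testis form of a complex IV subunit, did so at 0 days alone, with 1.56 FPKM there against 0.282 FPKM in the control, and it was listed at 0 at 6 and 10 days. Its place above the other libraries at 0 days was thus set by the filter.

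The genes had their lowest levels in the ATRA library labelled 0 days and came back up by 10 days. Summed over all 38 the level was 14752 FPKM in the control, and the ATRA libraries had 8321, 11323 and 13832 FPKM at 0, 6 and 10 days. At 0 days 34 of the 38 lay below the control, the exceptions being Atp5s, Cox8c, Ndufa2 and Ndufa6. At 10 days 33 lay above 0 days, the exceptions being Atp5a1, Ndufs1, Ndufv2, Sdha and Cox8c. The library at 0 days was the lowest of the 4 for 30 of 38 members, and for 24.9% of the 5885 symbols tested. It was the control for 3 members, 6 days for 1 and 10 days for 4, against 33.6%, 12.9% and 28.5% of symbols. The library at 10 days was the highest for 20 members, the control for 17, 0 days for 1 (Cox8c) and 6 days for none, against 29.6%, 38.2%, 22.5% and 9.65% of symbols. The full course, below the control at 0 days and above 0 days at both later stages, was shown by 30 members and by 24.7% of symbols. From 0 to 6 and from 6 to 10 days 29 members went up at both steps, against 29.4% of symbols.

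**Figure D1:**
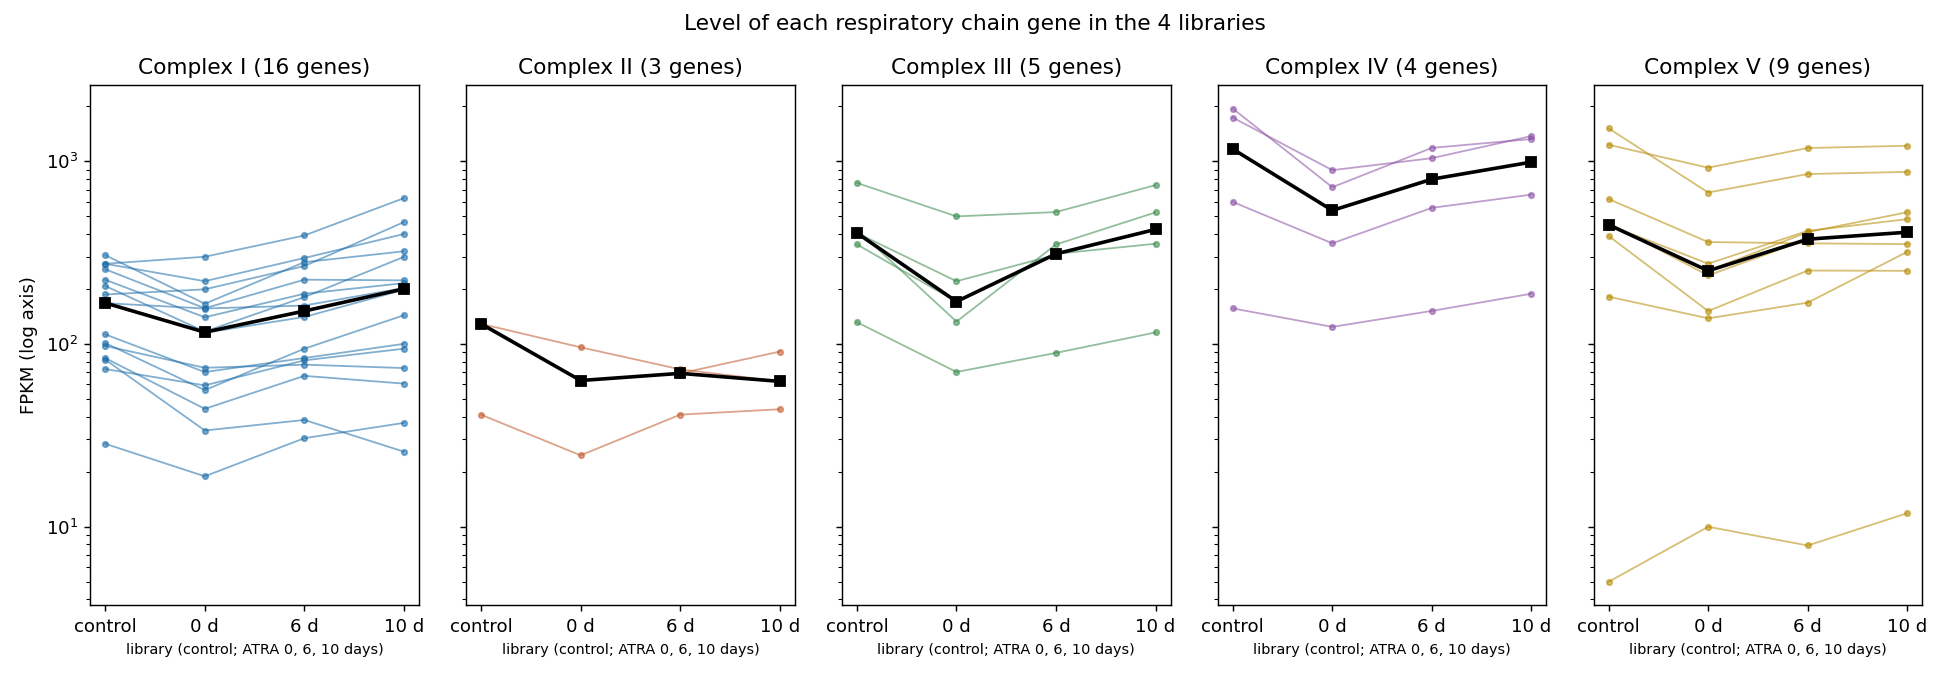
Level of each gene in FPKM on a log axis in the 4 libraries, by complex, with the median of each complex as black squares. Cox8c is left out because it was listed at 0 in 2 libraries. Most lines dip at 0 days, and the line at 4.98 to 11.8 FPKM in complex V is Atp5s.

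The difference was broad and moderate in size. The median over the 38 genes was -0.71 for 0 days over control, where the median of all tested symbols was -0.04. It was 0.42 for 6 over 0 days and 0.25 for 10 over 6 days, beside 0.01 and 0.02 for all tested symbols. For 10 over 0 days it was 0.72, and for 10 days over control 0.04, beside 0.02 and -0.04. These comparisons share libraries: a low value at 0 days enters the first and the later ones with opposite signs. The members varied less among themselves than symbols at large, with an SD across genes of 0.54 for 0 days over control, against 1.22 across all tested symbols, and of 0.58 against 1.18 for 10 over 0 days.

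Few members passed 2-fold. At 0 days 7 of 38 (18.4%) were 2-fold lower than the control and none higher, where 12.8% of all tested symbols were lower and 12.2% higher. At a threshold of 1.5-fold, 24 of 38 (63.2%) were lower, against 25.7% of all tested symbols. Cox8c aside, Atp5s was the 1 member higher, against 22.6%. Between 6 and 0 days Uqcrq was the 1 member called higher, and Cox8c was the 1 past 2-fold below, with backgrounds of 8.22% and 4.88%. Cox8c passed the filter through the 0-day library alone, so it had to be lower in the control and in the later libraries. Nothing is read from its calls in any comparison with 0 days. At 1.5-fold 14 were higher and, Cox8c aside, none lower, against 17.5% and 13.3%. No member was called for 10 over 6 days, where 3.7% of symbols were higher and 0.85% lower. At 1.5-fold Atp5d, Ndufa2, Ndufa6, Ndufs6 and Ndufs7 were higher at this step and none lower, against 12.1% and 5.91%. For 10 over 0 days 8 of 38 (21.1%) were higher and, Cox8c aside, none lower, against 14.4% and 7.6%, and at 1.5-fold 24 of 38 (63.2%) were higher, against 25.9%, with Sdha lower, Cox8c aside, against 19.9%. For 10 days over control 3 were higher and 2 lower (7.89% and 5.26%), below the backgrounds of 19.6% and 17.1%. At 1.5-fold 4 were higher and 5 lower, also below the backgrounds of 29.7% and 29.2%.

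Abundant genes as a class moved in the same direction, and most members are abundant. The 406 tested symbols at a mean of 100 FPKM or more that are not members had a median of -0.48 for 0 days over control and of 0.47 for 10 over 0 days. Relative to these abundant symbols the members' medians were -0.23 and 0.25, and few 2-fold calls were left. Cox8c aside, Uqcrq was then the 1 member lower at 0 days over control, with Atp5s higher. For 10 over 0 days Uqcrq was higher and Sdha lower, again with Cox8c aside. The summed FPKM of the whole table was 504989 in the control and 386313, 422687 and 524179 at 0, 6 and 10 days. The part of this difference in library composition in the members' values was not tested.

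**Figure D2:**
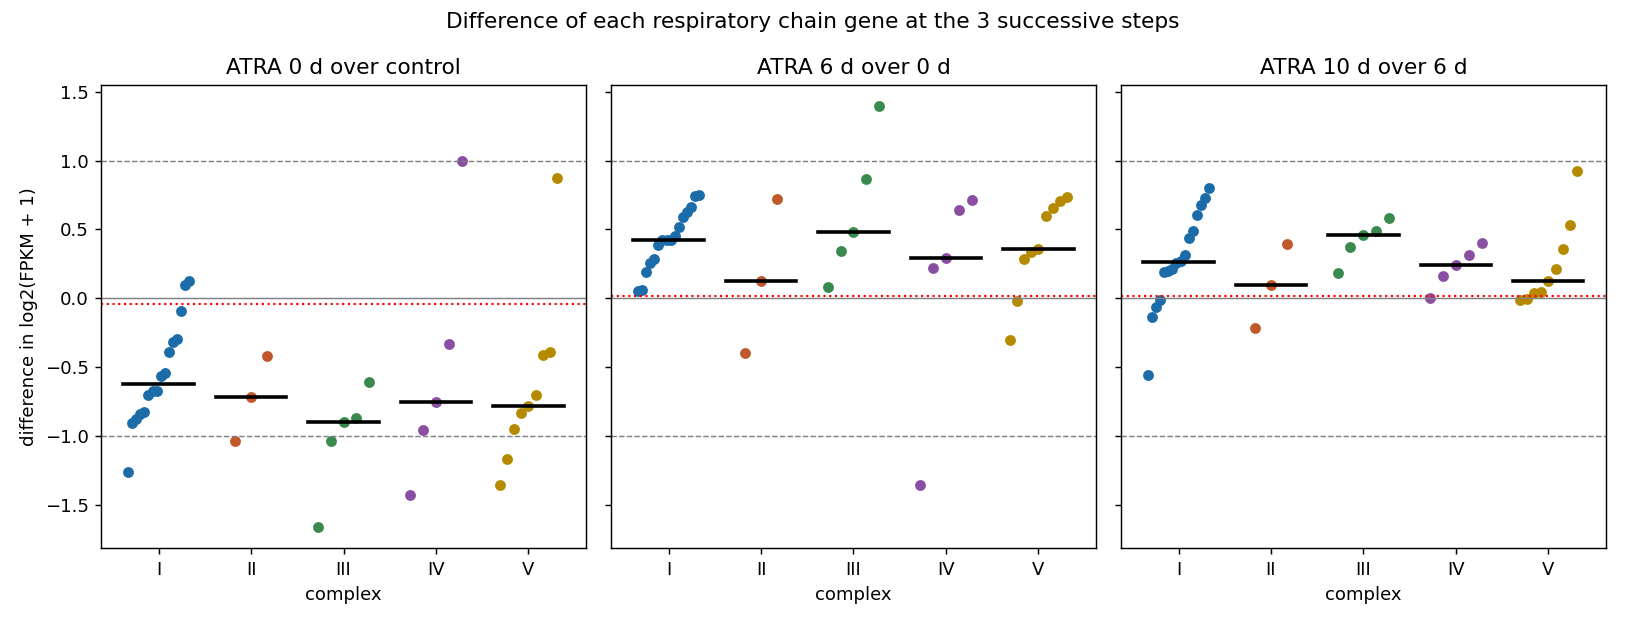
Difference in log2(FPKM + 1) of each gene (points) at the 3 successive steps, by complex, with the complex median as a black bar, the median of all tested symbols as a red dotted line and 2-fold as dashed lines. The complex medians lie between -0.90 and -0.62 at the first step and between 0.10 and 0.48 at the 2 later ones.

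Complex I takes electrons from NADH and is the largest of the chain. Its 16 members had a median of -0.62 for 0 days over control, with 1 called lower, 0.42 for 6 over 0 days and 0.26 for 10 over 6 days. The 12 accessory subunits, which surround and stabilise the enzyme, were all above the 0-day level at 10 days, with a median of 0.82. The 4 core subunits analysed, which bind the redox groups, had a median of 0.25, with 2 above and 2 below.

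Ndufs1, the core subunit that carries several iron-sulfur clusters (mm10 chromosome 1, 63143596 to 63176833, minus strand), differed most. It stood at 82.1 FPKM in the control and at 33.6, 38.3 and 25.7 FPKM at 0, 6 and 10 days. It was lowest at 10 days, and its difference was -1.26 for 0 days over control and -1.64 for 10 days over control. Ndufv2, a core subunit of the NADH-oxidising arm, had 97.5, 74.0, 77.0 and 73.8 FPKM in the same order, lower in all 3 ATRA libraries than in the control. Ndufs7, a core subunit with an iron-sulfur cluster, had 101, 55.8, 94.1 and 144 FPKM. Ndufs1 and Ndufs7 both rose from 0 to 6 days, and from 6 to 10 days Ndufs7 rose further while Ndufs1 fell. The ratio of Ndufs1 to Ndufs7 in FPKM came to 0.811 in the control and 0.601, 0.407 and 0.179 at 0, 6 and 10 days.

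Ndufa2 and Ndufa6 were the exceptions among the accessory subunits. Ndufa2, which has a thioredoxin-like fold, had 187 FPKM in the control and 199, 267 and 465 FPKM at 0, 6 and 10 days. Ndufa6, of the LYR protein family (chromosome 15, 82350140 to 82354322, minus strand), had 275, 300, 392 and 628 FPKM. Both were above the control at every ATRA stage, and both were called higher at 10 days over control, with differences of 1.31 and 1.19. Ndufs6, a zinc-binding subunit, had 208, 117, 180 and 300 FPKM, so that its difference of 1.35 for 10 over 0 days followed a dip at 0 days.

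The other accessory subunits kept within 2-fold in all comparisons. Ndufb3 had 306, 166, 280 and 322 FPKM, and Ndufb9, another LYR protein, had 275, 221, 295 and 400 FPKM. Ndufs4, whose loss causes a Leigh-like disease in mice, had 72.9, 59.3, 81.3 and 94.2 FPKM. These 3 show the common course of the complex, a dip at 0 days and the highest level at 10 days. Ndufa10 had 83.7, 44.1, 66.9 and 60.6 FPKM. Ndufa12 had 256, 157, 225 and 223 FPKM, and both came back to a lower level than the control. Ndufb4 had 224, 140, 188 and 215 FPKM and Ndufb10 had 168, 115, 141 and 198 FPKM. Ndufv3 was the steadiest, with 167, 156, 162 and 202 FPKM, and Ndufa11, in the membrane arm, the least abundant, with 28.4, 18.8, 30.5 and 36.9 FPKM.

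Complex II oxidises succinate, belongs to the citric acid cycle as well and pumps no protons. Its 3 members, the assembly factor Sdhaf4 included, summed to 300.5 FPKM in the control and to 183, 183 and 197 FPKM at 0, 6 and 10 days. Without Sdhaf4, Sdha and Sdhc summed to 259.5 FPKM in the control and to 158.9, 141.6 and 153.2 FPKM, lower at 10 than at 0 days. With Sdhaf4 counted, the ratio of 10 to 0 days was 1.07 in complex II. It was 1.81 in complex I, 1.98 in complex III, 1.69 in complex IV and 1.47 in complex V. Sdha, the flavoprotein that oxidises succinate (chromosome 13, 74322254 to 74350280, minus strand), had 129 FPKM in the control and 95.8, 72.6 and 62.4 FPKM at 0, 6 and 10 days. Each stage was lower than the one before it, and the difference at 10 days over control was -1.03, short of 2-fold under upper-quartile scaling, at -0.93. Sdhc, a membrane anchor, had 131, 63.0, 69.0 and 90.8 FPKM, and was called lower at 0 days over control (-1.04). Sdhaf4, which assembles Sdha, had 41.0, 24.5, 41.0 and 43.9 FPKM, the common course and not that of Sdha. The complex rests on 3 genes here, and Sdhb and Sdhd were not analysed here.

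Complex III passes electrons from coenzyme Q to cytochrome c. All 5 members were below the control at 0 days (median -0.90), above 0 days at 6 days (0.48) and above 6 days at 10 days (0.46). Uqcrq, a small subunit that contacts cytochrome b (chromosome 11, 53427922 to 53430831, minus strand), had the widest swing of all 38 genes. It stood at 422 FPKM in the control and at 133, 350 and 525 FPKM at 0, 6 and 10 days. Its difference was -1.66 for 0 days over control, 1.40 for 6 over 0 days and 1.98 for 10 over 0 days. Uqcr11 had 351, 171, 311 and 354 FPKM, called lower at 0 days (-1.04) and higher for 10 over 0 days (1.05). Uqcr10 had 405, 221, 308 and 424 FPKM and Uqcrb had 762, 499, 527 and 741 FPKM, both back near the control level at 10 days. Uqcrfs1, the Rieske iron-sulfur protein and the 1 redox-active subunit among these members, had 132, 70.2, 89.3 and 116 FPKM. The FPKM ratio of Uqcrq to Uqcrb was 0.554 in the control and 0.265, 0.665 and 0.709 at 0, 6 and 10 days, so the small subunits did not move by equal amounts.

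Complex IV reduces oxygen, and its catalytic core is encoded in mitochondrial DNA. Its 5 members summed to 4436 FPKM in the control and to 2097, 2933 and 3544 FPKM at 0, 6 and 10 days. The ratio of these sums for 0 days to control was 0.473, the lowest of the 5 complexes. It was 0.528 in complex III, 0.570 in complex V, 0.610 in complex II and 0.729 in complex I. Cox6c and Cox7c made up most of the sum of complex IV. By the median over members, complex III was lowest at -0.90, followed by complex V at -0.78 and complex IV at -0.75. Cox6c, a small transmembrane subunit and the most abundant of the 38 genes by mean, had 1944, 721, 1184 and 1324 FPKM, and its first difference was -1.43. Cox7c, also a small transmembrane subunit, had 1736, 894, 1040 and 1375 FPKM. Cox5b, a zinc-binding subunit on the matrix side, had 599, 356, 556 and 657 FPKM. Cox6c and Cox7c stayed under the control at 10 days, while Cox5b lay above it. Cox7a2l had 157, 124, 152 and 188 FPKM, the smallest dip among the 4 members below the control at 0 days (-0.33).

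Complex V was the most abundant by sum, with 5301 FPKM in the control and 3022, 4018 and 4444 FPKM at 0, 6 and 10 days. Its catalytic hexamer is built from the products of Atp5a1 and Atp5b. Atp5b, the catalytic subunit, had 1516, 675, 852 and 875 FPKM and was called lower at 0 days over control (-1.17). Atp5a1 had 621, 361, 356 and 352 FPKM and showed no return at 6 or 10 days. The FPKM ratio of Atp5b to Atp5a1 was 2.44 in the control and 1.87, 2.40 and 2.49 at 0, 6 and 10 days. Atp5d, of the central stalk, had 181, 138, 168 and 320 FPKM, and its difference of 0.92 for 10 over 6 days was the largest of any member at that step. The 3 peripheral stalk genes had like levels and courses. Atp5h had 449, 251, 410 and 526 FPKM. Atp5j had 459, 237, 375 and 409 FPKM. Atp5o had 448, 275, 416 and 482 FPKM, again lowest at 0 days. Atp5s, a low-level gene named for a coupling factor, had 4.98, 9.97, 7.87 and 11.8 FPKM. It was above the control in each ATRA library and called higher at 10 days (1.10).

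Atp5g1 and Atp5g2 are separate genes for the same mature protein, the c subunit whose ring turns in the membrane. They differ in the leader peptide that is cut off on import. Atp5g1 (chromosome 11, 96068852 to 96075670, minus strand) had 390, 151, 252 and 251 FPKM. Atp5g2 (chromosome 15, 102662864 to 102672352, minus strand) had 1231, 923, 1182 and 1217 FPKM. Atp5g1 was called lower at 0 days over control (-1.36) and Atp5g2 was not (-0.42). The FPKM ratio of Atp5g2 to Atp5g1 was 3.16 in the control and 6.10, 4.69 and 4.84 at 0, 6 and 10 days. Annotated copies bear on Atp5g2: 2 pseudogenes match at least 50% of its transcript at 95% identity or more, and 0 match Atp5g1. The other members with such pseudogenes were Atp5h and Uqcrb with 3 each and Atp5o and Ndufa12 with 1 each. Outside pseudogenes, Gm10012 matches Cox7c and Gm10175 matches Atp5g2 by the same criteria, so the FPKM of all these members is less certain.

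Promoter sequence was set beside these values because most members moved together. The factors NRF1, GABPA (of the ETS family) and YY1 are known regulators of respiratory chain genes. RefSeq promoter windows on GRCm38.p6, from 250 bases before to 50 after each gene start, matched 27 of the 38 genes by symbol. Both strands were searched for short forms of their motifs, GCGCNTGCG (NRF1), CCGGAAG (ETS) and ATGGCGGC (YY1). A match describes letters and is no evidence of binding. The NRF1 letters were in 14 of 27 members (51.9%), against 15.7% of the 4155 tested symbols with a window and 7.12% of all 27025 symbols. With the full-length NRF1 motif, searched first, the shares were 33.3%, 11.7% and 5.19%. Mitochondrial ribosomal protein genes, the related group described further on, held the short form in 13 of 30 (43.3%) and the full-length form in 9 of 30. Any of the 3 short motifs was in 63.0% of the members and 63.3% of that group. The ETS letters were in 3 members (11.1%), against 18.7% and 9.93%, and the YY1 letters in 3 (11.1%), against 5.68% and 2.6%. The windows of the 2 c-subunit genes are printed first, because the genes differed in their first step, followed by Atp5h, Uqcr11 and Ndufs6, all called higher for 10 over 0 days. Ndufb4 and Sdha are shown for their 3 NRF1 matches each. Each runs 5′ to 3′ to 30 bases after the start, with NRF1 and ETS matches in capitals.
Atp5g1 (chr11:96075602-96075881, minus strand): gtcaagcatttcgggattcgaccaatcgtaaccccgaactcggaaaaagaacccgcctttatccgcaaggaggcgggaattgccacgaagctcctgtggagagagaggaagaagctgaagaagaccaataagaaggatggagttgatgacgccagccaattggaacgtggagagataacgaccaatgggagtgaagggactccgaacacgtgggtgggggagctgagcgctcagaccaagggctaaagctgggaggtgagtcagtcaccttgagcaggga
Atp5g2 (chr15:102671018-102671297, minus strand): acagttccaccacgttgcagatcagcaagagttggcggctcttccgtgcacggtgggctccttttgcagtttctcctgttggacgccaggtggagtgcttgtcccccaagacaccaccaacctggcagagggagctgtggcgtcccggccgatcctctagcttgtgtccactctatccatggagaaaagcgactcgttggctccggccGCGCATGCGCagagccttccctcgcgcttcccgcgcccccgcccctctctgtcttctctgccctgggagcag
Atp5h (chr11:115419890-115420169, minus strand): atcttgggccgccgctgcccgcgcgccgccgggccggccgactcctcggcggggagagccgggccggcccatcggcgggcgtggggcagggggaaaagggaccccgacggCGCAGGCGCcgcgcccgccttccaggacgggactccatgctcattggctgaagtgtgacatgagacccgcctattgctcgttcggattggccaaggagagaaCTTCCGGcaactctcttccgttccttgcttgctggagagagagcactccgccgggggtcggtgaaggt
Uqcr11 (chr10:80406792-80407071, minus strand): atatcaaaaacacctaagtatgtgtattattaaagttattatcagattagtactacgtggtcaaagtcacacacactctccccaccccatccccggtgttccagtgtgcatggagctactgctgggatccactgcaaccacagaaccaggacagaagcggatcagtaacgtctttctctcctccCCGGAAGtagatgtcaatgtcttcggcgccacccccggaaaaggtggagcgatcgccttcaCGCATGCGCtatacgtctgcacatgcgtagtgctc
Ndufs6 (chr13:73328453-73328732, minus strand): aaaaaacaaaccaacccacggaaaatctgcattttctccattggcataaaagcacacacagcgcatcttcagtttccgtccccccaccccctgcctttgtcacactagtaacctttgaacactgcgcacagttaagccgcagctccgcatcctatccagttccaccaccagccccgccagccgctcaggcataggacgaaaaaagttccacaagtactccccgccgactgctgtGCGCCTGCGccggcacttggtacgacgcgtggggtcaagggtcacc
Ndufb4 (chr16:37654339-37654618, minus strand): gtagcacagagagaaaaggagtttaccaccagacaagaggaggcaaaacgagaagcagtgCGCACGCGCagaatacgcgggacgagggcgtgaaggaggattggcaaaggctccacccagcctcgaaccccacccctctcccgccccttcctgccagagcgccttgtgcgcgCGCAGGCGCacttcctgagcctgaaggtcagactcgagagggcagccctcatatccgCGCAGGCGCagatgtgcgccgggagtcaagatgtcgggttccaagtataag
Sdha (chr13:74350211-74350490, minus strand): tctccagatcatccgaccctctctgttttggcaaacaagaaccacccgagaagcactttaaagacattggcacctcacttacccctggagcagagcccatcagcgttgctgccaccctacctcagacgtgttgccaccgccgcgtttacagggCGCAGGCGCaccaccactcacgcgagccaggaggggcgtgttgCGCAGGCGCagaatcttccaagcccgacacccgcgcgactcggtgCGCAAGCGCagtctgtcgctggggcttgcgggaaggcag
Atp5g1 held none of the 3 motifs in its window and Atp5g2 held 2 overlapping NRF1 matches, 42 and 41 bases before the start. Atp5h and Uqcr11 each held 1 NRF1 and 1 ETS match. Members with and without NRF1 letters moved in the same direction: the median for 0 days over control was -0.69 in the 14 with a match and -0.88 in the 13 without, and for 10 over 0 days it was 0.87 and 0.66. Ndufb4 and Sdha, with 3 matches each, differed by 0.62 and -0.61 for 10 over 0 days. The other 11 members had no window in the table.

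Genes that run mitochondrial biogenesis and maintain mitochondrial DNA were mostly lower at 0 days, with no return in their median by 10 days. Of 25 such genes listed, 14 were in the table and 12 tested. Their median was -0.48 for 0 days over control, with 11 of 12 below the control. Gabpa was the 1 called lower there, against 12.8% of all tested symbols. For 10 over 0 days the median was -0.05, with 7 of 12 below. Top1mt was the 1 called higher, against 14.4% of all tested symbols. Gabpa, the ETS factor, had 41.1 FPKM in the control and 19.7, 12.0 and 9.55 FPKM at 0, 6 and 10 days, each stage lower than the one before. Its exons overlap those of Atp5j on the opposite strand, and whether fragments were counted by strand is not known here. Other members with exons of another gene on the opposite strand are Atp5a1, Ndufa2, Ndufs1, Ndufs6, Sdhaf4 and Uqcrb. Atp5o and Ndufb9 overlap a gene on their own strand. The name Atp5o is carried by 2 annotated genes, and overlaps were sought for the entry at 91684398 to 91926982 on chromosome 16. Tfam, which packs and transcribes mitochondrial DNA, had 29.8, 18.0, 17.6 and 15.6 FPKM. Yy1 had 39.2, 40.9, 35.3 and 50.5 FPKM, not lower at 0 days and highest at 10 days. The gene of NRF1 was not analysed here. Top1mt, the mitochondrial topoisomerase, had 7.96, 7.47, 13.1 and 16.9 FPKM (1.08 for 10 over 0 days). Esrrg and Ppara were under 1 FPKM in all 4 libraries.

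The length of the transcript went with the difference at 10 days. The 25 members under 1000 nt had a median of 0.88 for 10 over 0 days and of 0.11 for 10 days over control. In the 13 members of 1000 nt or more these medians were 0.45 and -0.46. Ndufs1, Sdha, Atp5a1, Atp5b and Atp5g1, the 5 members 1.5-fold or more lower at 10 days than in the control, all have a median transcript length of 1916 nt or more. This median over annotated transcripts can lie far from the longest coding sequence. Atp5g1 has a median of 2675.5 nt and 408 coding nt, and Ndufv3 a median of 645 nt and 1404 coding nt. Across the 38 genes, which share the same libraries and are not independent, Spearman's rho of length with the difference was -0.52 for 10 over 0 days, -0.46 for 10 days over control and -0.13 for 0 days over control. With coding length in place of transcript length the 3 values were -0.52, -0.23 and 0.13, so the relation for 10 days over control was weaker.

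Across the table the relation was seen for 10 over 0 days and was weaker or opposite in sign elsewhere. Of 5408 tested symbols with a length, the 455 under 1000 nt had a median of 0.61 for 10 over 0 days and the 4953 longer ones a median of -0.04, and rho was -0.36. It was -0.14 for 10 days over control and 0.14 for 0 days over control, where it was opposite in sign to the members' value. The members under 1000 nt had medians of -0.71 for 0 days over control and 0.88 for 10 over 0 days, and the 109 other symbols under 1000 nt at a mean of 100 FPKM or more had -0.51 and 0.70. The part of transcript length in the members' values was not tested.

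**Figure D3:**
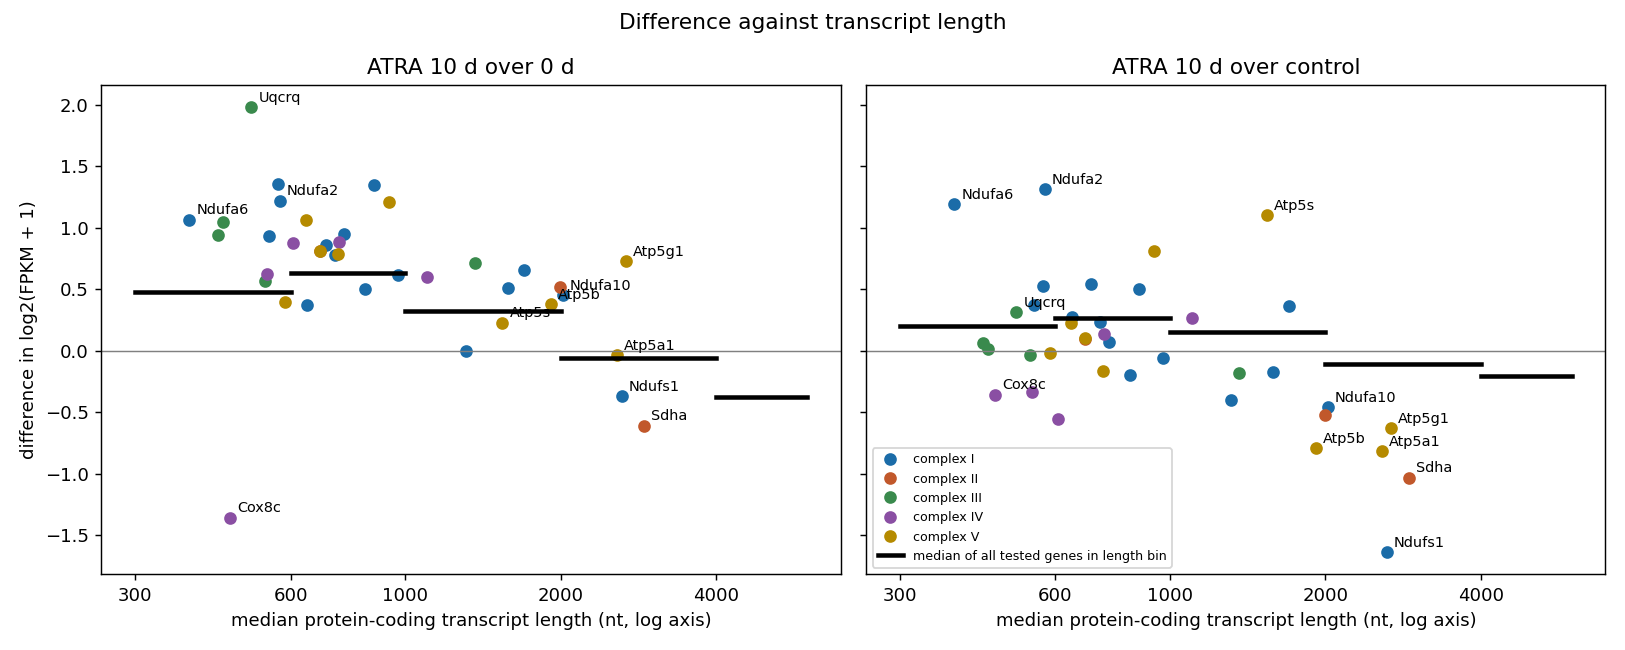
Difference in log2(FPKM + 1) of each gene against its median protein-coding transcript length in nt (log axis), for 10 days over 0 days (left) and 10 days over control (right), with the median of all tested genes per length bin as black bars. The first bin holds all transcripts under 600 nt and the last all of 4000 nt or more. Ndufs1 and Sdha, with long transcripts, lie below 0 in both panels. Atp5g1 (long by this median, 0.73 in the left panel) and Cox8c (short, below 0 in both) depart from the trend. The direction of Cox8c in the left panel was set by the filter.

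Related gene groups were set beside the members. The members had medians of -0.71 for 0 days over control and 0.72 for 10 over 0 days. The 35 mitochondrial ribosomal protein genes, which build the ribosome that translates the mitochondrially encoded subunits, had medians of -0.78 and 0.69. Of these 35 genes, 13 were 2-fold lower at the first step, against 12.8% of all tested symbols. For 10 over 0 days 9 were higher, against 14.4%. The 37 genes with symbols of cytosolic ribosomal proteins had medians of -0.39 and 0.55. Being taken by symbol, that list also holds Rps19bp1, Rpl7l1, Rpl10l, Rpl39l and Rpl3l, whose names mark relatives or binding partners of ribosomal proteins. No test of these differences between groups could be run with 1 library per group.

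Assembly factors had the first dip and less of the return. The 4 tested factors of complex I were all below the control at 0 days (median -0.60), with a median of -0.11 for 10 over 0 days. Ndufaf2, a factor of late complex I assembly, had 125, 82.8, 68.1 and 58.2 FPKM. Of 18 tested factors of complexes III to V, 3 were 2-fold lower at 0 days over control and 2 higher for 10 over 0 days (medians -0.49 and 0.35). These counts are near the shares of all tested symbols, 12.8% and 14.4%. Cox17, a copper chaperone of complex IV, had 321, 256, 331 and 652 FPKM, called higher for 10 over 0 days. Sco1, another copper protein, had 11.3, 4.21, 3.98 and 3.85 FPKM. Lrpprc, which stabilises mitochondrial mRNAs, had 29.3, 13.03, 12.1 and 7.80 FPKM, lower at each stage.

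Fuel supply and transport genes had the dip with little return. Of 12 tested genes of the citric acid cycle and pyruvate entry, 2 were lower and 1 higher at 0 days over control (median -0.58), and 0 passed 2-fold for 10 over 0 days (median 0.07). Of all tested symbols, 12.8% were lower and 12.2% higher in the first comparison, and 7.6% and 14.4% in the second. Pdhb, a subunit of pyruvate dehydrogenase, had 303, 105, 115 and 97.6 FPKM. Mpc2, of the pyruvate carrier, had 21.1, 30.4, 37.1 and 56.1 FPKM, above the control at each ATRA stage. Of the 8 tested genes of the cytochrome c, coenzyme Q and carrier list, Cyc1, the cytochrome subunit of complex III that the symbol rule passes over, had 365, 177, 219 and 237 FPKM. Vdac1, the outer membrane channel, had 493, 167, 222 and 189 FPKM. Both were called lower at 0 days over control, 2 of the 8 against 12.8% of all tested symbols. The list median was -0.66 there, and for 10 over 0 days it was 0.26.

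**Figure D4:**
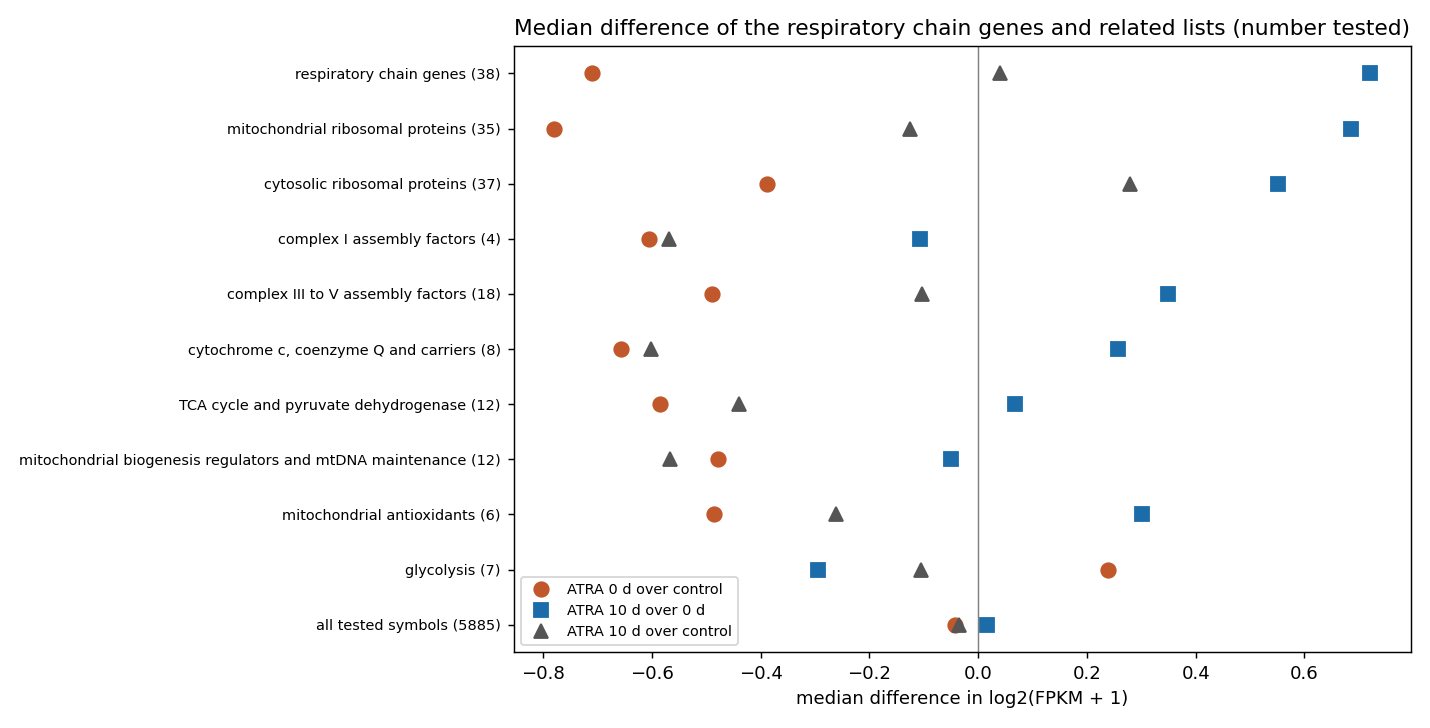
Median difference in log2(FPKM + 1) of the respiratory chain genes, related lists and all tested symbols, with the number tested in brackets, for 0 days over control (circles), 10 over 0 days (squares) and 10 days over control (triangles). The respiratory chain and mitochondrial ribosomal protein genes lie side by side at -0.71 and -0.78 for the first and 0.72 and 0.69 for the second.

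Cell type markers differed between the libraries as well. All 7 tested pluripotency markers were 2-fold lower at 0 days than in the control, against 12.8% of all tested symbols. Their summed level was 2235 FPKM in the control and 176, 268 and 243 FPKM at 0, 6 and 10 days. The 9 endoderm markers summed to 166, 338, 2453 and 3576 FPKM, and the 9 epithelial and trophoblast markers to 204, 374, 2447 and 4111 FPKM. Sparc made up most of the first sum, with 133, 259, 1862 and 2712 FPKM, and Krt8 and Krt18 together most of the second. Both sums grew most between 0 and 6 days. For 6 over 0 days 8 of 9 endoderm and 9 of 9 epithelial and trophoblast markers were 2-fold higher, against 8.22% of all tested symbols. Of the latter 9, Tpbpa and Prl2b1 were listed at 0 at 0 days and passed the filter through the 6- and 10-day libraries alone. Their direction was thus set by the filter, and nothing is read from their calls. The 8 neural markers in the table summed to 10.1, 27.2, 124 and 57.96 FPKM, with Nefm under 1 FPKM in all libraries. The 11 cardiac and muscle markers summed to 64.8, 39.9, 81.5 and 342 FPKM, with Myh6, Actn2, Nkx2-5 and Pln under 1 FPKM in all. At 10 days Tnnc1 alone had 217 FPKM of that sum. In bulk RNA, fewer cells of a type and less RNA per cell cannot be told apart, and the part of cell mixture in the members' values was not tested.

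Under other scalings the medians had the same sign in every comparison but 10 days over control. The median for 0 days over control ranged from -0.71 as deposited to -0.46 with upper-quartile scaling and -0.35 with equal sums per library. For 10 over 0 days it was 0.72, 0.57 and 0.30, and for 10 days over control it was 0.04, 0.14 and -0.02. Upper-quartile scaling moved the median of all tested symbols by 0.18 at the first step and equal sums by 0.28, and relative to that median the members stood at -0.67, -0.61 and -0.59. In equal sums 8 of the 38 members were above the control at 0 days, against 4 as deposited. The calls of Uqcrq in 3 comparisons held in all these scalings, as did those of Ndufs1, Ndufa2 and Ndufa6 for 10 days over control. Of the 7 calls lower at 0 days over control, those of Atp5b, Sdhc and Uqcr11 ended with upper-quartile scaling, at -0.92, -0.79 and -0.78. In equal sums Cox6c and Uqcrq were the 2 left. Both scalings also called Atp5s and Cox8c higher at 0 days over control, the direction of Cox8c being set by the filter. With Cox8c counted, the split was 2 higher and 4 lower with upper-quartile scaling. It was 2 higher and 2 lower with equal sums, against 0 and 7 as deposited. Of the 5885 tested symbols, 720 were higher and 752 lower for 0 days over control as deposited. With upper-quartile scaling 943 were higher and 497 lower, and with equal sums 1112 and 434. Equal sums left Uqcrq of the 8 higher for 10 over 0 days, where 530 of all tested symbols were higher. Complex II, with Sdhaf4 included, had a ratio of summed levels for 10 over 0 days of 1.07 as deposited. It was 0.968 with upper-quartile scaling and 0.802 with equal sums. The split of all calls moved too: of the symbols called for 0 days over control, 48.9% were higher as deposited, 65.5% with upper-quartile scaling and 71.9% with equal sums. For 10 over 0 days these shares were 65.5%, 53.9% and 34.3%.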

How the data were processed

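RNA was measured in 4 libraries, 1 per group. The deposited values are FPKM, per the file headers. Per the submitters' processing notes, Trimmomatic, TopHat, Cufflinks and the build mm10 were used. The sources used here give no version, annotation, strand setting or filter. FPKM depends on the transcript length assumed for a gene and on the library total, and fragments that fit near-identical genes are shared out between them.

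The table had 10201 rows and 9997 symbols, and rows of 177 repeated symbols were summed (no member was repeated). Differences are on the log2(FPKM + 1) scale for the 5885 symbols that reached 1 FPKM in any library. Single libraries allow neither a test nor a p-value nor an SD over samples. Members are named, apart from a result that is not reported here, with values of every call and of the extremes of each complex, and up to 4 called genes of each other list, with further members shown after their values were seen. Members and lists were chosen with earlier results of these data known. Related ribosomal protein genes were taken by symbol. Unlisted genes were not analysed here.

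Depth came from the worth of 1 fragment, the median of FPKM times kb between 0.02 and 0.05 over 3707 single-transcript genes (800 nt or longer). It covers counting error only. Lengths and positions came from GENCODE M21 (mm10), and copies from a megablast search of its transcripts. The 2-fold call was also run on simulated libraries that held counting error alone. These had no difference in library composition and no variation between cultures, so they cannot bear on either. Python 3.11.15, numpy 2.4.6, pandas 2.3.3 and matplotlib 3.10.9 were used. Alternatives were pseudocounts of 0.1 and 0.5, no filter or 5 FPKM, 3 scalings, folds of 1.5 and 4, taking the highest of repeated rows, and leaving out Sdhaf4. Centring on abundant symbols and leaving out Atp5s, Cox8c and Sdhaf4 were added after seeing the data.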

Additional observations from a re-analysis of the deposited data

How the results depend on the processing

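No paired analysis was possible because each group has 1 library. With no replicates, a median was taken as moved at a shift of 0.1 (log2) and a count or a ratio of sums at 1.5 times. Upper-quartile scaling gave medians of -0.46 for 0 days over control, 0.11 for 10 over 6 days, 0.57 for 10 over 0 days and 0.14 for 10 days over control. Equal sums without small and ribosomal RNAs gave -0.35, 0.19 for 6 over 0 days, 0.057 for 10 over 6 days, 0.30 for 10 over 0 days and, with the sign reversed, -0.016 for 10 days over control. Centring on abundant symbols gave -0.23, 0.13, 0.11 and 0.25 for 0 days over control, 6 over 0, 10 over 6 and 10 over 0 days. Counts of members past the fold, both directions together and Cox8c included, were 7, 2, 0, 9 and 5 in the 5 comparisons. A 1.5-fold threshold gave 26, 15, 5, 26 and 9, by its construction, and a 4-fold threshold gave 0 for 0 days over control, 6 over 0 days, 10 over 0 days and 10 days over control. Equal sums gave 4 for 0 days over control and 3 for 10 over 0 days, and centring gave 3 and 3. For 6 over 0 days, a filter at 5 FPKM and leaving out Atp5s, Cox8c and Sdhaf4 each gave 1, since Cox8c drops out. All 40 ratios of summed levels by complex under other settings moved by less than 1.5 times, though that of complex II for 10 over 0 days crossed 1. Of the values of called members under these settings, 163 were still past 2-fold, 19 were not, and none changed sign. The cause of the moves under scaling was not tested. Depth limits Cox8c, at about 3 fragments in the control and 19 at 0 days.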

Other observations

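Genes of the wider energy metabolism that the account above passes over had these values. Sod2, the manganese superoxide dismutase of the matrix, stood at 52.9 FPKM in the control and 11.2, 12.7 and 11.2 FPKM at 0, 6 and 10 days, lower than the control by 2.15 on the log2 scale at 0 days with no return. Sod1, the copper and zinc enzyme of the cytosol and intermembrane space, had 1350, 725, 802 and 1095 FPKM, a course like that of the respiratory chain genes. Of the 6 tested antioxidant genes, 1 was 2-fold lower at 0 days over control (median -0.49), against 12.8% of all tested symbols.

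Of 22 listed glycolysis genes 7 were tested, so the list covers a part of the pathway. At 6 days 34 of the 38 respiratory chain genes were higher than at 0 days, and all 7 glycolysis genes were lower, with a median of -0.46, where 2864 of the 5885 tested symbols were lower. For 10 over 6 days the medians were 0.25 in the respiratory chain genes and 0.29 in the glycolysis genes (5 of 7 higher). For 0 days over control they were -0.71 and 0.24, with 4 of 7 glycolysis genes higher. Pfkp, the platelet form of phosphofructokinase, had 123, 36.2, 18.2 and 15.2 FPKM in the control and at 0, 6 and 10 days. Eno3, the muscle form of enolase, had 18.1, 40.0, 28.8 and 32.5 FPKM, 2-fold higher at 0 days over control.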
